A study of Mus musculus with 6 samples.

Results

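The NanoString panel used on these mouse livers carries 15 probes from a run of miRNA names that has been assigned to tRNA or rRNA. They are mmu-miR-720, the 2 mmu-miR-1937 probes (one for miR-1937a and miR-1937b together, one for miR-1937c) and 12 probes numbered from mmu-miR-2132 to mmu-miR-2146. These are 15 of the 566 mouse miRNA probes. They were chosen by name, as a run of entries later withdrawn from miRNA naming as pieces of these RNAs. The group was proposed with the count share of miR-720 already known, so that share is described here and not tested. RNA came from 3 frozen liver samples of *Apcfl/fl* mice with Wnt-dependent hepatocellular carcinoma and 3 of *Apc+/+* mice, the healthy controls, all on the C57Bl/6 background. The *Apcfl/fl* mice are homozygous for a hypomorphic *Apc* allele. No age is given in the labels, and each sample is liver tissue with no sorting of cells described. In such bulk RNA, fewer cells of a type and less RNA per cell cannot be told apart.

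Transfer RNAs carry amino acids to the ribosome, and ribosomal RNAs form most of the ribosome itself. Both are far more abundant than any miRNA, and both are cut or degraded into short pieces that enter small RNA preparations. Mature miRNAs are released from hairpins by Drosha and Dicer and loaded into Argonaute, which is not how these pieces arise as a rule. The sequence once named miR-720 lies in a threonine tRNA. In the NanoString assay a tag is joined to each small RNA and the tagged molecules are counted with colour-coded probes, so an RNA whose end matches a probe can be counted as the miRNA.

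In the RefSeq annotation of assembly GRCm38.p6, 3 of the 15 names matched a mature miRNA, and the other 12 are given by name only. Combined probe names, names with several matches and matches on an excluded chromosome could not be kept, so the other 12 are not shown to be absent. The matched sequences are shown, with the seed (bases 2 to 8) in capitals:
mmu-miR-2136: cUGGGUGUugacugagaugug
mmu-miR-2137: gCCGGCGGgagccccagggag
mmu-miR-2139: aGCUGCGCugcuccugguaacugc
No seed was shared among them. MiR-2137 is the richest in G and C, with 18 of its 21 bases, against 11 of 21 in miR-2136 and 15 of 24 in miR-2139. *Mir2137* lies within the span of the protein-coding gene *Zfp185*, and *Mir2139* within *Klhdc7a*. This annotation still lists these 3 members as miRNA genes, and a tRNA or rRNA origin was not tested for them. They were kept because the choice was by name. All 3 were weakly detected, as described further down.

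Together the 15 probes took 22.9%, 19.5% and 40.7% of all mouse miRNA counts in the *Apc+/+* livers. In the *Apcfl/fl* livers the figures were 29.7%, 30.2% and 22.3%. The genotypes overlapped, and *Apc+/+* liver 3 stood apart from every other liver. The mean share was 27.7% ± 11.4 (SD, n = 3) in *Apc+/+* against 27.4% ± 4.43 (SD, n = 3) in *Apcfl/fl* samples, a difference of -0.33 percentage points that lay inside the spread between livers. Without *Apc+/+* liver 3 the difference was 6.17 percentage points, *Apcfl/fl* being higher. The total mouse miRNA count ran from 82942 to 133331 per liver, and *Apc+/+* liver 3 had the highest. With the members taken out it ran from 63936 to 102999, and *Apc+/+* liver 3, at 79044, no longer led.

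**Figure D1:**
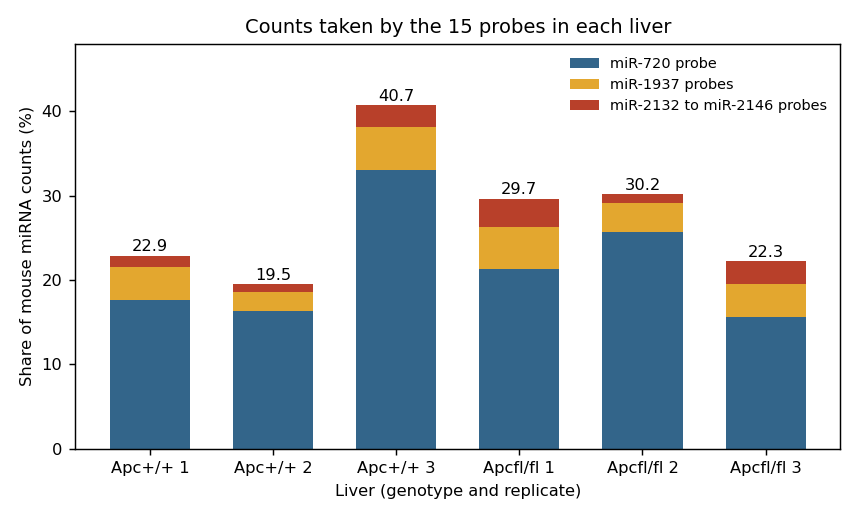
Share of all mouse miRNA counts (y axis, %) taken by miR-720, the 2 miR-1937 probes and the 12 miR-2132 to miR-2146 probes in each of the 6 livers (x axis), as stacked bars from 0 with the sum printed above. The bar of *Apc+/+* liver 3 reaches 40.7%, and the other livers lie between 19.5% and 30.2%.

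Most of this was miR-720, the threonine tRNA fragment and the most abundant probe of the panel by its mean count. Its deposited counts were 14649.7, 15216 and 44019.7 in *Apc+/+* against 20599, 26455 and 20775 in *Apcfl/fl* liver. *Apc+/+* liver 3 was by far the highest, the other *Apc+/+* livers were the lowest, and the *Apcfl/fl* livers lay between. As a share of the mouse miRNA counts this was 17.7%, 16.4% and 33% in *Apc+/+* against 21.4%, 25.7% and 15.7% in *Apcfl/fl* liver. At this depth the counting error of a share is small, with a 95% Wilson interval of 32.8% to 33.3% in *Apc+/+* liver 3, which covers counting error only. The 2 miR-1937 probes, also assigned to tRNA, added 2.29% to 5.09% of the mouse counts, and the 12 probes from miR-2132 to miR-2146 added 0.902% to 3.38%. The 14 probes other than miR-720 made up 15% to 29.7% of the members' counts.

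MiR-720 was the top probe in 4 of the 6 livers, and in *Apc+/+* livers 1 and 2 it came second to miR-122, the main hepatocyte miRNA. The ratio of miR-720 to miR-122 counts was 0.872, 0.585 and 1.48 in *Apc+/+* against 3.08, 2.47 and 1.35 in *Apcfl/fl* liver. *Apc+/+* liver 3 lay above *Apcfl/fl* liver 3, so the genotypes overlapped in this ratio too. Of the counts outside the member list, miR-122 held 26.3% to 37.6% in *Apc+/+* against 9.86% to 15% in *Apcfl/fl* liver, without overlap. The 3 hepatocyte miRNAs listed as markers (miR-122, miR-192 and miR-194) held 30.4% to 40.8% and 13.4% to 18.3%, and none of the 3 was at the lowest value of the table throughout. MiR-122 made up most of these sums, so they say little about miR-192 and miR-194. With the TMM scaling described below, the log2 fold change was -1.71 for miR-122, against -0.39 for miR-192 and -0.52 for miR-194. The 8 listed blood cell miRNAs held 1.33% to 1.69% in *Apc+/+* against 1.7% to 6.51% in *Apcfl/fl* liver, with 1 of the 8 at the lowest value throughout. The 6.51% was *Apcfl/fl* liver 2, where miR-451 had 3806 normalized counts, against 600 and 953 in *Apcfl/fl* livers 1 and 3. In the fit described below, the genotypes overlapped for every tested one of these except miR-223. All of the tested ones but miR-150 were fitted higher in *Apcfl/fl* liver. The 5 mesenchymal miRNAs held 1.11% to 1.43% and 0.528% to 1.07%, and both endothelial strands 3.69% to 4.72% and 3.86% to 5.25%. The part of cell composition in the members' levels was not tested.

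The members differed from one another by several orders of magnitude in count. Of the 15, 11 reached the minimum for testing, 20 counts on average over the livers, and 10 were above background in every liver. Background was set per liver as the mean plus 2 SD of the 33 viral miRNA probes, 13.1 to 27.8 counts. The probe for miR-1937a and miR-1937b was sixth among the mouse probes by mean count, with 2186, 1228 and 4124 counts in *Apc+/+* against 3340, 2755 and 3646 in *Apcfl/fl* liver. *Apc+/+* liver 2 was the lowest and *Apc+/+* liver 3 the highest, so both extremes belonged to the control genotype. MiR-1937c had 1014, 898 and 2658 counts in *Apc+/+* against 1393, 789 and 1441 in *Apcfl/fl* liver. Although both probes carry the miR-1937 name, the ratio between them ran from 1.37 in *Apc+/+* liver 2 to 3.49 in *Apcfl/fl* liver 2, and it was 2.16 and 1.55 in *Apc+/+* livers 1 and 3 and 2.4 and 2.53 in *Apcfl/fl* livers 1 and 3.

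Among the higher-numbered probes, miR-2141 was the most abundant, with 371, 289 and 1517 counts in *Apc+/+* against 1103, 426 and 1367 in *Apcfl/fl* liver. MiR-2134 had 206, 119 and 501 counts against 405, 155 and 768. MiR-2140 had 186, 136 and 652 counts against 573, 213 and 333, and miR-2146 had 155, 104 and 500 against 422, 125 and 419.7. In all 4, *Apc+/+* liver 3 and *Apcfl/fl* livers 1 and 3 were high, and the other *Apc+/+* livers and *Apcfl/fl* liver 2 were low, although for miR-2140 *Apcfl/fl* liver 3 lay nearer the low livers. MiR-2132 was an exception to that order, with 116, 63.3 and 92.3 counts in *Apc+/+* against 415, 102 and 412 in *Apcfl/fl* liver, so that only *Apcfl/fl* livers 1 and 3 were high. MiR-2133, miR-2135 and miR-2138 were weaker, with means of 41, 90 and 52.8 counts, and miR-2133 fell under the background limit in 1 liver.

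The remaining 4 members were under the count minimum and get no fold change. MiR-2137, the closest to it with a mean of 16.3, had 10.3, 19.3 and 11.3 counts in *Apc+/+* against 28.3, 9.33 and 19.3 in *Apcfl/fl* liver, above background in 2 livers. MiR-2133, the next member on the other side, had a mean of 41. MiR-2136, miR-2139 and miR-2145 had means of 5.78, 6.39 and 7.17 and were above background in 0 of the 6 livers. The 3 members with a matched RefSeq sequence, printed above, are thus all among these 4. MiR-2139 had 6.67, 11.7 and 9.67 counts in *Apc+/+* against 1, 5.67 and 3.67 in *Apcfl/fl* liver. These did not overlap, but all were under background. The counts of miR-2136 and miR-2145 overlapped between genotypes. A genotype difference in these 4 members was not tested in the main fit, and counts this low cannot settle one.

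To compare members without counting them in the denominator, each was expressed per 1000000 mouse miRNA counts outside the list. All members share this denominator, so its differences between livers enter all their levels alike. On this scale the level of miR-720 was 229129, 203298 and 556899 in *Apc+/+* against 303760, 368385 and 201699 in *Apcfl/fl* liver, a 2.76-fold range. *Apcfl/fl* liver 3 was the lowest and *Apc+/+* liver 3 the highest, so the order did not follow the genotype. The levels of miR-2141 were 5803, 3861 and 19192 in *Apc+/+* against 16266, 5932 and 13272 in *Apcfl/fl* liver, a 4.97-fold range. For 7 of the 8 tested probes from miR-2132 to miR-2146, the 3 highest livers were *Apc+/+* liver 3 and *Apcfl/fl* livers 1 and 3. These 3 livers were picked after the data had been seen, as those where the sum of these same probes was highest. The 7 of 8 therefore follows largely from that choice. The same 3 livers led for 13 of the 163 tested probes outside the list. Those probes had no part in the choice, so the counts are not comparable. The standard deviation of the log2 level over the 6 livers was 0.58 for miR-720 and up to 1.09, for miR-2132. Its median was 0.90 over the 11 tested members and 0.64 over all 174 tested probes, and 98 of the 174 varied more than miR-720.

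**Figure D2:**
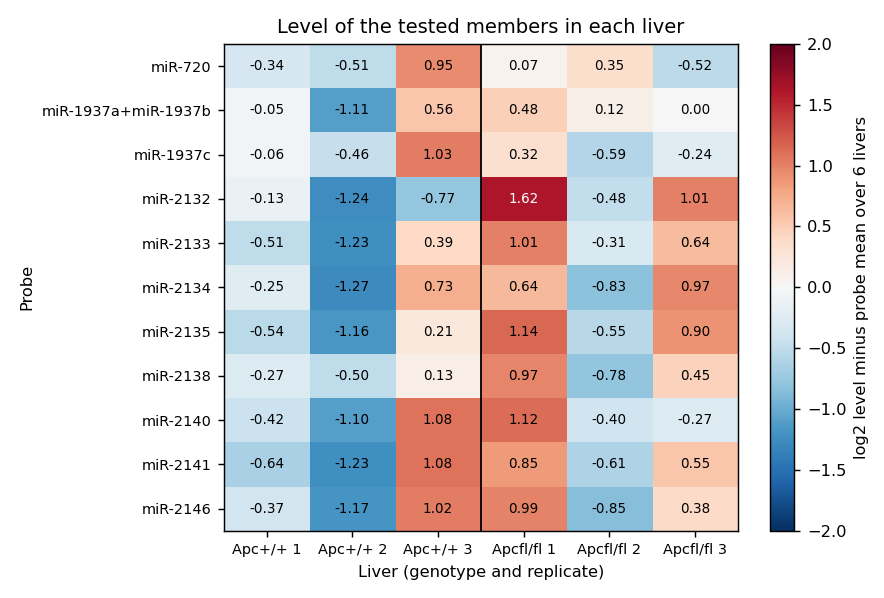
Level of the 11 tested members (rows) in the 6 livers (columns; the line divides the genotypes), as log2 counts per 1000000 counts outside the list minus each probe's mean over the livers (red above, blue below the mean). *Apc+/+* liver 2 is below the mean for all 11 probes, and *Apc+/+* liver 3 and *Apcfl/fl* liver 1 are red in most rows.

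The probes from miR-2132 to miR-2146 varied together. Over the 6 livers the Pearson correlation between pairs of the 8 tested ones ran from 0.47 to 0.98 with a median of 0.87 (28 pairs). For comparison, the median over the 13203 pairs of tested probes outside the list was 0.12. These correlations are descriptions over 6 livers, and the paired values share the same RNA, the same hybridisation and the same denominator. When each value was taken as its deviation from the mean of its genotype the median was 0.89. For the levels themselves, the median of 0.87 became 0.94 without *Apc+/+* liver 3. The closest pairs were miR-2133 with miR-2135 (r = 0.98) and miR-2141 with miR-2146 (r = 0.98). MiR-2132 was the loosest, at 0.47 with miR-2140. The miR-1937 probes correlated with these 8 at a median of 0.72 (16 pairs).

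MiR-720 followed the others less closely. Its Pearson correlation with the other 10 tested members ran from -0.20, with miR-2132, to 0.70, with miR-2140, with a median of 0.40. The smallest p was for the probe for miR-1937a and miR-1937b, with r = 0.69 (exact permutation test over pairings, two-sided, n = 6, p = 0.0611, adjusted p = 0.611 over 10 relations) and a Spearman rho of 0.77 (exact permutation p = 0.103, adjusted p = 0.994). None of the 10 relations passed the threshold by either coefficient (0 of 10). Without the livers farthest from the median of miR-720, *Apc+/+* liver 3 and *Apcfl/fl* liver 2, that r was 0.71 and the median over the 10 was 0.67, from 4 livers. The count of miR-720 was 12.7, 18.1 and 12.6 times the summed count of the 12 higher-numbered probes in *Apc+/+* liver, and 6.33, 23.2 and 5.64 times in *Apcfl/fl* liver. *Apcfl/fl* liver 2 therefore had the highest and *Apcfl/fl* liver 3 the lowest ratio.

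**Figure D3:**
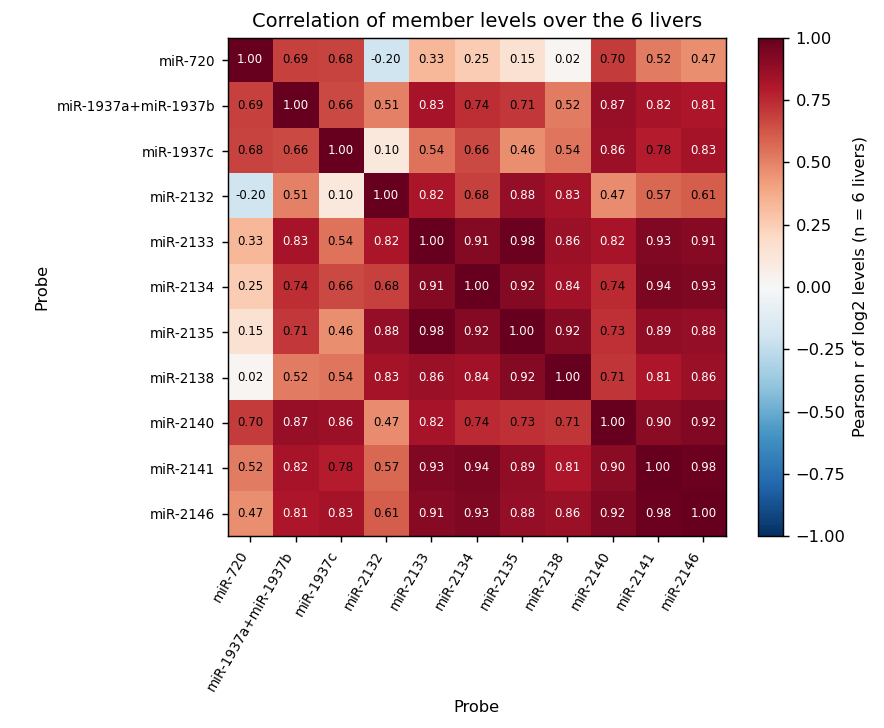
Pearson correlation of the log2 levels (counts per 1000000 counts outside the list) over the 6 livers, for each pair of the 11 tested members (both axes; red positive, blue negative). The block of miR-2133 to miR-2146 is mostly above 0.80, while the row of miR-720 runs from -0.20 to 0.70.

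Outside the list, the probes most like miR-720 among the 163 tested were miR-496 (r = 0.88), miR-1935 (r = 0.85) and miR-3471 (r = 0.78). The median over the 163 was -0.16. MiR-496 had a mean count of 21, just over the minimum, and exceeded background in 2 livers, so its place rests on low counts. MiR-1935 was measured above background in all livers, with 101, 134 and 209 counts in *Apc+/+* against 146, 147 and 200.3 in *Apcfl/fl* liver. MiR-3471 had 29.7, 57.7 and 224 counts against 19.7, 115 and 30.7, with *Apc+/+* liver 3 and *Apcfl/fl* liver 2 high, the same pair that was highest for miR-720. The probes most like the mean of the 8 higher-numbered members, looked up after the members' own pattern had been seen, were miR-494 (r = 0.96), miR-1839-5p (r = 0.96) and miR-378 (r = 0.89), against a median of 0.10. MiR-1839-5p had a mean count of 26 and exceeded background in 4 livers, so its r rests partly on low counts. MiR-494 had 95.7, 89.7 and 295 counts in *Apc+/+* against 255, 118 and 299 in *Apcfl/fl* liver, with the same 3 livers high as for miR-2141.

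Other miRNA names are also known to come from precursor rRNA, snoRNA or mitochondrial RNA. Of 9 such names listed from general knowledge, 6 were on the panel, without the mitochondrial one, and 2 passed the count minimum. The list held no further names of tRNA origin and need not be complete, so other such probes may be among the counts outside the member list. MiR-714, from precursor rRNA, had 41.3, 28.3 and 13.3 counts in *Apc+/+* against 79.3, 25.3 and 57.3 in *Apcfl/fl* liver. MiR-1839-5p, from a snoRNA, had 13, 13 and 29 counts against 36, 19 and 46. The genotypes overlapped in both after normalization, and neither passed the test (adjusted p = 0.72 and 0.76 in edgeR's quasi-likelihood test). MiR-712, miR-715, miR-1839-3p and miR-664 had means of 6.22, 1.33, 6 and 10 counts.

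The genotypes were then compared over all 174 tested probes, with edgeR's quasi-likelihood test on rounded counts and TMM scaling, which sets library sizes from the bulk of the probes. For none of the 11 tested members was the adjusted p-value under 0.05 (0 of 11), as for 0% of all tested probes. At an unadjusted p under 0.05 it was 1 of 11, miR-2132, against 24.7% of all tested probes. DESeq2 called 0 of 11, against 16.7% of all tested probes. Limma called 0 of 11 and 0% of all tested probes, so nothing can be read from its count about the members. The normalized counts of the genotypes overlapped for all 11 members (0 of 11 apart), while 33.9% of the tested probes did not overlap. Without *Apc+/+* liver 3 it was 1 of 11, miR-2133, against 43.1% of all tested. The median log2 fold change was -0.17 over the tested members and 0.01 over all tested probes, with 5 members fitted higher and 6 lower in *Apcfl/fl* liver. With the total count as library size 9 of the 11 were fitted higher, so the balance of signs depended on the scaling.

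MiR-720 averaged 30412 ± 20488 normalized counts (SD, n = 3) in the control livers and 20063 ± 7312 (SD, n = 3) in the *Apcfl/fl* livers. The log2 fold change of -0.60 had a standard error of 0.51 and a 95% confidence interval from -1.79 to 0.59 (adjusted p = 0.49), and without *Apc+/+* liver 3 it was 0.01. The interval spans both a fall and a rise, so no direction can be given. MiR-1937c had the most negative value, -0.90 (standard error 0.44, adjusted p = 0.25), and without *Apc+/+* liver 3 it was -0.29. Its partner probe for miR-1937a and miR-1937b was at -0.17 (interval -1.15 to 0.82), and at 0.30 without that liver.

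MiR-2132 had the highest fold change of the members. It averaged 112 ± 34.5 normalized counts (SD, n = 3) in the control livers and 251 ± 134 (SD, n = 3) in the *Apcfl/fl* livers, a log2 fold change of 1.16 with a standard error of 0.48 and an interval from 0.02 to 2.30 (adjusted p = 0.19). *Apcfl/fl* liver 2 lay within the range of the *Apc+/+* livers (two-sided exact permutation test, p = 0.3, where 3 livers against 3 cannot go below 0.1). Left out, that liver brought the value to 1.58 with an adjusted p of 0.047. The other 7 tested members of this number range lay between -0.33 (miR-2140) and 0.59 (miR-2135), with adjusted p-values of 0.52 to 0.98. Without *Apc+/+* liver 3, miR-2141 went from -0.20 to 0.89, miR-2146 from -0.25 to 0.67, miR-2140 from -0.33 to 0.63 and miR-2134 from 0.02 to 0.73, none with an adjusted p under 0.05.

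**Figure D4:**
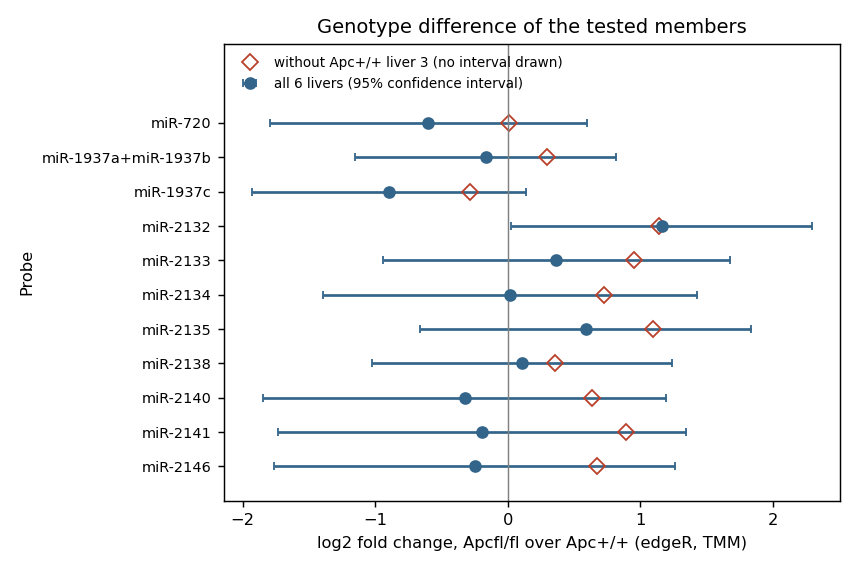
Log2 fold change of the 11 tested members between *Apcfl/fl* and *Apc+/+* liver in edgeR with TMM scaling (x axis), with 95% confidence intervals for the fit on 6 livers (filled circles) and the value without *Apc+/+* liver 3 (open diamonds, no interval drawn). The intervals of all members except miR-2132 include 0, and most diamonds lie to the right of their circles.

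Because the members held up to 40.7% of a library, their effect on the scaling was measured. Relative to the geometric mean of the 6 livers, the size of *Apc+/+* liver 3 was 1.27 by the total count, 1.04 by the total without the members, 0.838 by TMM and 0.853 by TMM without the members. The TMM factor of that liver was 0.661 with the members and 0.818 without them. For the other livers the size by the total count changed less when the members were removed, as for *Apcfl/fl* liver 3, from 1.26 to 1.36. Between genotypes the changes largely cancelled. The *Apcfl/fl* to *Apc+/+* ratio of sizes was 1.09 by the total count and 1.1 without the members, against 1.45 by TMM and 1.47 by TMM without the members.

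**Figure D5:**
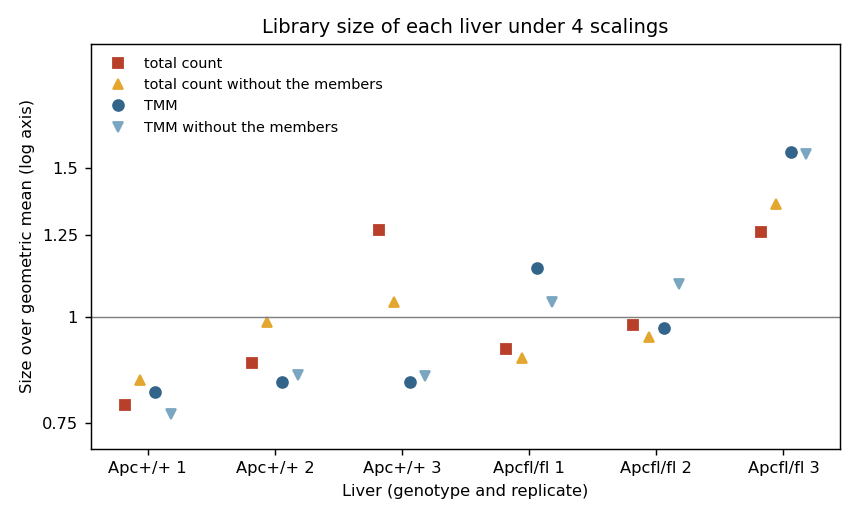
Library size of each of the 6 livers (x axis) over the geometric mean of all 6 (y axis, log scale), by the total count, the total count without the 15 members, TMM, and TMM without the members. For *Apc+/+* liver 3 the value falls from 1.27 to 1.04 when the members leave the total, and TMM gives 0.838 with and 0.853 without them.

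The same held for the fold changes of the other miRNAs. The median log2 fold change of the 163 tested probes outside the list was 0.46 with the total count, 0.43 with the total without the members, 0.04 with TMM and 0 (0.0034) with TMM without the members. Taking the members out of the total thus moved this median far less than changing from the total count to TMM. With the total count 17 of the 174 probes had an adjusted p under 0.05 (9.77%), none of them a member (0 of 11). Without the members in the total it was 21 (12.1%; 3 lower and 18 higher in *Apcfl/fl* liver), again with 0 of 11 members, and all 17 were among the 21. With TMM it was 0, and with TMM without the members 4 (3 lower and 1 higher), where the smallest adjusted p of the former lay just above the threshold at 0.0559.

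Of the 17 probes whose call differed between TMM and the total count, 16 were higher and 1 lower in *Apcfl/fl* liver. MiR-21, often raised in liver tumours, had a log2 fold change of 1.31 with TMM (adjusted p = 0.056), 1.77 with the total count (adjusted p = 0.011) and 1.74 with the total without the members (adjusted p = 0.02). MiR-122 was the lower one, at -1.71 (adjusted p = 0.056), -1.28 (adjusted p = 0.031) and -1.31 (adjusted p = 0.029). MiR-376b and miR-127, next after miR-21 by p with the total count, passed as well (adjusted p = 0.031 each), with fold changes that are not given because both were under background in every *Apc+/+* liver. Some others of the 16 higher probes were also under background in every *Apc+/+* liver, so their calls rest on control values near the floor.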

How the data were processed

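Small RNAs of 6 mouse livers (3 *Apc+/+*, 3 *Apcfl/fl*) were counted on a NanoString miRNA panel. The authors deposited estimated counts per probe, not scaled between livers. In all 584 probes with 2 or more values above 1, those values shared a decimal part, and 446 of the 3594 values were exactly 1, the lowest. From this it was inferred that a constant had been subtracted from each probe and that values below 1 had been set to 1. The software and genome build are not given in the sources used here, and 0 value columns lacked a sample. Each column is 1 numbered liver of a genotype. Nothing in the labels says that each came from a separate mouse, so p-values measure only the spread between these samples.

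The counts were rounded. Library size was the total of the mouse probes. Mouse probes with a mean count of at least 20 were fitted with edgeR 4.0.16 in R 4.3.3 (TMM, quasi-likelihood test, p-values adjusted by the Benjamini-Hochberg method over every tested probe, 0.05 as threshold). They held 97.3% of the mouse counts. Levels for correlations were log2 of counts per 1000000 counts outside the member list, with a pseudocount of 0.5. Livers of a genotype differed by 17.2 to 89.1 times the counting noise, taken as chi-square over its degrees of freedom, and none was a duplicate.

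Named were all members, miR-122, the 3 probes most like miR-720, up to 3 probes in each direction whose call changed with the total count, and listed probes from other non-miRNA transcripts. MiR-494, miR-378 and the further use of miR-1839-5p were chosen after their values were seen. So were the 3 livers given as the highest for the higher-numbered probes. The members and lists were chosen with earlier results of these data known. The alternatives were DESeq2 1.42.0, limma 3.58.1, other scalings, filters and denominators, viral probe subtraction, a replicate block and each liver left out. The values without *Apc+/+* liver 3 for overlap and for pairs of members were added after the data had been seen. The procedure was tested on simulated counts.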

Additional observations from a re-analysis of the deposited data

How the results depend on the processing

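The 6 livers give wide intervals, and 1 liver, *Apc+/+* 3, set the direction for several members. Of 185 member fold changes over the alternatives, 149 kept their sign and their side of the threshold, 35 changed sign, none of these with an adjusted p under 0.05, and 1 passed the threshold (miR-2132 without *Apcfl/fl* liver 2). MiR-1937c, miR-2132, miR-2133 and miR-2135 kept their sign in every alternative run. Counting error is small for the abundant members, while the 4 members under the count minimum cannot be compared. The causes of the changes below were not tested.

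With the total count the probe for miR-1937a and miR-1937b was at 0.33, miR-2140 at 0.29, miR-2141 at 0.45 and miR-2146 at 0.38. With the total without the members these were 0.26, 0.17, 0.30 and 0.25, and with the total without miR-720 they were 0.26, 0.18, 0.31 and 0.25. With no filter they were 0.20, 0.00051, 0.17 and 0.11. With a count minimum of 60, the miR-1937a and miR-1937b probe was at 0.025 and miR-2141 at 0.031, and with the replicate block they were at 0.0021 and 0.13. MiR-2141 was at 0.12 with limma and at 0.00099 after viral probe subtraction, and, with a size factor from the top 100 probes, miR-2134 was at -0.044. With 1 liver left out, the ranges were -0.50 to 0.30 for the miR-1937a and miR-1937b probe, -0.38 to 0.73 for miR-2134, -0.20 to 0.47 for miR-2138, -0.85 to 0.63 for miR-2140, -0.51 to 0.89 for miR-2141, -0.61 to 0.67 for miR-2146 and -0.87 to 0.012 for miR-720. The lower ends came without *Apc+/+* liver 2 (miR-1937a and miR-1937b, miR-2141, miR-720), *Apcfl/fl* liver 1 (miR-2138, miR-2140, miR-2146) or *Apcfl/fl* liver 3 (miR-2134), and the upper ends without *Apc+/+* liver 3, except for miR-2138 (without *Apcfl/fl* liver 2).

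The number of miRNAs called in *Apcfl/fl* liver, 0 lower and 0 higher with TMM (19 and 24 at an unadjusted p under 0.05), was 9 and 20 with DESeq2, 1 and 16 with the total count, 3 and 18 both without the members and without miR-720 in the total, 3 and 1 with TMM without the members, 6 and 1 with the top 100 probes, 6 and 12 with the count minimum of 60 and 6 and 9 after viral probe subtraction. It was 0 and 0 with limma and with no filter. With 1 liver left out it ranged from 0 to 8 lower and 0 to 11 higher, both highest without *Apcfl/fl* liver 3. The replicate numbers did not pair the livers (correlations of -0.06, -0.06 and 0.12 between livers of the same number), and with the number as a replicate block 3 were lower and 4 higher, none of them a member.

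The median log2 fold change of the tested miRNAs outside the list, 0.04 with TMM, was 0.46 with the total count, 0.43 without the members, 0.41 without miR-720, -0.10 with the top 100 probes, -0.11 with no filter and 0.27 after viral probe subtraction. With 1 liver left out it ranged from -0.05 to 0.09. The difference in the members' share ranged from -4.42 to 6.17 percentage points with 1 liver left out, and it was 1.1 for the list without miR-720.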
